A study of Mus musculus with 50 samples.

Results

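The colon of mice that lacked FADD in intestinal epithelial cells and ZBP1 in the whole body (FADD IEC-KO Zbp1 -/-) was compared with that of floxed mice (Fadd fl/fl). The comparison was defined by the array titles, numbers 1 to 5 for the co-deletion and 26 to 30 for the floxed mice, and took in 10 of the 50 arrays of the study and all 19494 genes that could be tested. Each array held colon RNA of 1 mouse, and the values are log2 signals, on which a difference of 1 is a doubling. All mice were kept under specific pathogen-free conditions and were 11 weeks old per the sample labels, or 10 to 12 weeks per the series' design text. Fadd fl/fl mice carry the floxed gene that the deletion acts on. The sources used here do not give the driver of the recombinase, the mouse strain, the sex, the hour of collection or whether the mice were littermates. Other groups served only for context: FADD IEC-KO mice without a second deletion (5 arrays with titles 1 to 30 and 5 with titles 86 to 124), FADD IEC-KO RIPK3 IEC-KO, FADD IEC-KO Mlkl -/- and Casp8 fl/fl (5 arrays each).

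FADD is the adaptor that links death receptors of the TNF family to caspase-8. When the FADD and caspase-8 pair is missing, the kinase RIPK3 can activate MLKL, which ruptures the cell membrane in necroptosis. ZBP1 is a sensor of Z-form nucleic acids, induced by interferons, that recruits RIPK3 through a shared motif. Epithelial cells that die in this way release their contents into the mucosa, and loss of FADD in the gut epithelium of mice is known for colitis. The comparison asked which differences from floxed colon were still present in mice that had lost FADD in the epithelium but also lacked ZBP1.

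The labels were first checked on the targeted genes. The level of Fadd was 6.33, 6.06, 6.30, 6.46 and 6.00 in FADD IEC-KO Zbp1 -/- colons, against 7.61, 7.32, 7.47, 7.37 and 7.12 in Fadd fl/fl colons. The groups did not overlap, and the difference was -1.15 (SE 0.11, n = 5 each, limma adjusted p = 5.222e-09). The RNA was that of colon tissue, in which only the epithelium was targeted. The source of the remaining Fadd signal was not tested. Zbp1 had 5.28, 5.77, 5.53, 6.10 and 4.77 in FADD IEC-KO Zbp1 -/- colons, against 5.67, 5.75, 5.36, 5.79 and 5.82 in Fadd fl/fl colons, a difference of -0.19 (95% interval -0.73 to 0.36, limma adjusted p = 0.852). These groups overlapped, so the level of Zbp1 does not check its deletion. FADD IEC-KO mice with titles 1 to 30 had 6.34 to 8.03. Of 27 measured genes of the interferon-gamma response and antigen presentation, 26 were lower in the co-deletion than in those mice. Of 28 type I interferon-stimulated genes, 2 were lower and 1 was higher. Zbp1 is itself induced by interferons, and their part in its level was not tested. The sources used here do not say where the probe set lies relative to the deleted part of Zbp1. The necroptosis kinase gene Ripk3 (difference 0.63, 95% interval 0.12 to 1.13), Mlkl (0.44, 0.10 to 0.78) and Casp8 (-0.12, -0.35 to 0.11) did not pass.

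Across the genome few genes separated the co-deletion from the floxed mice. Of 19494 genes, 97 (0.498%) were higher and 112 (0.575%) lower in FADD IEC-KO Zbp1 -/- at a limma adjusted p under 0.05. Only 7 of the rises and 7 of the falls reached 2-fold, and the median size was 0.46 for the rises and -0.47 for the falls. The median over all genes was -0.01. The deposited values already had array medians of 6.41 to 6.47, so this median cannot show whether RNA levels shifted as a whole. For 68 of the rises and 85 of the falls the 5 arrays of one group did not overlap with the 5 of the other, which held for 1.79% of all genes upward and 2.11% downward. At an unadjusted p under 0.05 there were 2470 genes. The same fit gave 1674 higher (8.59%) and 1976 lower (10.1%) genes for FADD IEC-KO (titles 1-30) against the same floxed arrays, 18.7% in all.

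**Figure D1:**
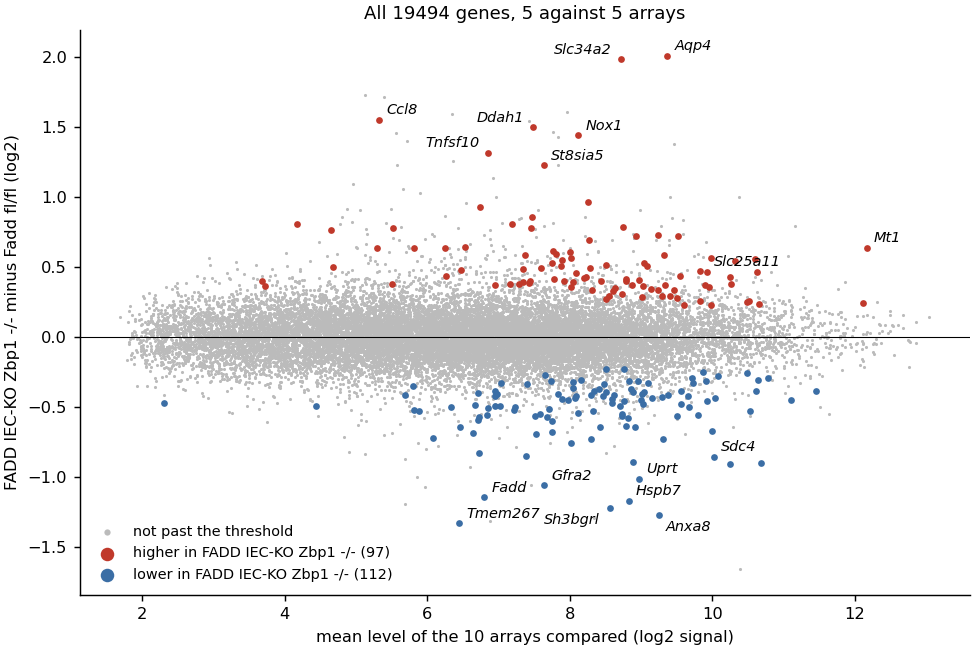
Every gene is a point, with its mean level over the 10 arrays on the x axis (log2 signal) and the difference FADD IEC-KO Zbp1 -/- minus Fadd fl/fl on the y axis (log2). Red points are the 97 genes past the threshold upward and blue points the 112 downward, and the named genes are those of 2-fold or more along with Mt1, Slc25a11 and Sdc4.

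The count of 209 moved with single arrays and with clock genes. It was 77 without Fadd fl/fl replicate 27, 68 without replicate 28, 133 without replicate 29, 80 without FADD IEC-KO Zbp1 -/- replicate 2 and 75 without replicate 4. The core clock genes differed between mice: a clock score, in which the average of Dbp, Tef, Ciart, Nr1d1, Nr1d2, Per2 and Per3 was subtracted from that of Clock, Npas2 and Arntl, had means of 1.33 ± 1.15 in FADD IEC-KO Zbp1 -/- and -0.38 ± 1.22 in Fadd fl/fl (SD, n = 5 each). In the co-deletion it was -0.57 in replicate 1 and 1.39 to 2.49 in the others, whereas in floxed mice it was 1.74 in replicate 30 and -1.31 to -0.49 in the others. With this score as a covariate 75 genes passed, 60 of them among the 209. The Y-linked genes were high in 2 of 5 co-deletion arrays and 3 of 5 floxed arrays, and with sex as a covariate 175 genes passed. A group of 38 genes, 17 higher and 21 lower, passed in all 10 fits that left out 1 array, and 24 of them (10 higher, 14 lower) also passed with the compared arrays alone, with the clock score and with the sex covariate.

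Among the rises, the leading gene was Aqp4, a water channel of the basolateral membrane of epithelial cells. Aqp4 had 10.48, 10.51, 10.11, 10.86 and 9.92 in FADD IEC-KO Zbp1 -/- colons, against 8.73, 8.00, 7.85, 8.90 and 8.36 in Fadd fl/fl colons. Every co-deletion array was at least 1 unit above every floxed array, and the difference of 2.01 (SE 0.25, limma adjusted p = 1.47e-06) is a 4.02-fold rise. FADD IEC-KO mice with titles 1 to 30 had 10.40 to 10.45, and the co-deletion differed from them by -0.05 (SE 0.25). Group means of Aqp4 were 9.75 ± 0.29 in FADD IEC-KO RIPK3 IEC-KO, 9.66 ± 0.52 in FADD IEC-KO Mlkl -/- (SD, n = 5 each), with Casp8 fl/fl mice at 8.97 ± 0.24 (SD, n = 5). Aqp4 was the only gene of the 31 measured genes of colonic ion and solute transport that passed, and that list had a median of 0.02.

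Genes of immune signalling and cell death followed. Ccl8, a chemokine that draws monocytes, had 5.48, 5.92, 6.67, 6.55 and 5.91 in FADD IEC-KO Zbp1 -/- colons, against 4.62, 4.37, 4.99, 4.50 and 4.29 in Fadd fl/fl colons, a rise of 1.55 (SE 0.25, limma adjusted p = 0.0003504). Tnfsf10, which encodes the death ligand TRAIL, had 7.05, 7.52, 7.73, 8.16 and 7.12 in the co-deletion and 6.01, 6.26, 6.07, 6.21 and 6.45 in floxed colons, a rise of 1.31 (SE 0.20, limma adjusted p = 0.0001849). In both genes the groups were apart on all 10 arrays, and both passed in all 10 fits that left out an array and with the clock score. Casp4, the mouse caspase that senses bacterial lipopolysaccharide in the cytosol, rose by 0.79 (SE 0.18), with 8.65 to 9.80 in the co-deletion and 8.18 to 8.58 in floxed colons. Mov10, an RNA helicase with antiviral activity, rose by 0.85 (SE 0.18), with 7.49 to 8.16 against 6.87 to 7.17. Casp4 and Mov10 were past the threshold (limma adjusted p = 0.01927 and 0.008787) but had adjusted p = 0.1502 and 0.07428 with the clock score as a covariate. The macrophage list had overlapping array means, at 6.83 to 7.36 in FADD IEC-KO Zbp1 -/- and 6.54 to 7.09 in Fadd fl/fl. The part of macrophages in the rise of Ccl8 was not tested. In bulk colon RNA a change in the number of cells of a type and a change in the RNA per cell cannot be told apart.

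The epithelial oxidase gene Nox1, whose protein makes superoxide in the colon, had 7.55, 9.33, 9.54, 9.37 and 8.42 in FADD IEC-KO Zbp1 -/- colons, against 7.83, 7.14, 7.16, 7.52 and 7.36 in Fadd fl/fl colons. Replicate 1 of the co-deletion lay inside the floxed range, and the other 4 arrays lay above it. The rise of 1.44 (SE 0.30, limma adjusted p = 0.01104) had adjusted p = 0.05895 in a fit of the 10 arrays alone and 0.09031 with the clock score. Ddah1, an enzyme that degrades inhibitors of nitric oxide synthases, rose by 1.50 (SE 0.37, limma adjusted p = 0.02866), with 7.93 to 8.87 in the co-deletion and 6.18 to 7.25 in floxed colons. Its level in FADD IEC-KO (titles 1-30) was higher still, with the co-deletion at -1.17 relative to it (SE 0.37, limma adjusted p = 0.0336). Ces2e, a carboxylesterase, rose by 0.96 (SE 0.22). Ddah1 and Ces2e had adjusted p = 0.1638 and 0.101 with the clock score.

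Of the 14 genes of 2-fold or more, 3 fell outside the naming rule because their groups overlapped, and were chosen after their values were seen. Slc34a2, a sodium-dependent phosphate transporter, had 8.34, 10.59, 10.08, 9.97 and 9.59 in FADD IEC-KO Zbp1 -/- colons, against 7.38, 7.65, 7.34, 7.86 and 8.40 in Fadd fl/fl colons (difference 1.98, SE 0.43, limma adjusted p = 0.01323). St8sia5, a sialyltransferase that builds gangliosides, differed by 1.23 (SE 0.33, limma adjusted p = 0.04804), with 6.67 in co-deletion replicate 1 and 8.32 to 9.06 in the others, against 6.62 to 7.47 in floxed colons. Slc34a2, St8sia5 and Nox1 shared the low value of replicate 1, the co-deletion mouse whose clock score was also on the floxed side. Tmem267 differed by -1.33 (SE 0.35, limma adjusted p = 0.04804), with 5.00 to 7.27 in the co-deletion and 6.52 to 7.61 in floxed colons. With the clock score all 3 missed the threshold, at adjusted p = 0.101 for Slc34a2, 0.1318 for St8sia5 and 0.1955 for Tmem267.

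Smaller rises included the following genes. Mt1, a metallothionein that binds zinc and copper, had 12.43, 12.55, 12.54, 12.51 and 12.40 in FADD IEC-KO Zbp1 -/- colons, against 11.95, 12.12, 12.07, 11.64 and 11.48 in Fadd fl/fl colons, a rise of 0.64 (SE 0.10, limma adjusted p = 0.0003654). Slc25a11, the carrier that exchanges oxoglutarate and malate across the inner mitochondrial membrane, had 10.19, 10.23, 10.17, 10.06 and 10.15 in the co-deletion, against 9.88, 9.56, 9.57, 9.76 and 9.72 in floxed colons, a rise of 0.47 (SE 0.07, limma adjusted p = 4.365e-05). Mt1 and Slc25a11 were chosen after their values were seen, and neither pair of groups overlapped. Got1, the cytosolic aspartate aminotransferase, rose by 0.72 (SE 0.14, limma adjusted p = 0.006134), and Mdh2, mitochondrial malate dehydrogenase, by 0.35 (SE 0.09, limma adjusted p = 0.0448). Mdh2 passed in 4 of the 10 fits that left out an array and had adjusted p = 0.187 with the clock score and 0.1383 on the compared arrays alone. Of 17 measured respiratory chain genes, Ndufb5 rose by 0.29 (SE 0.07) and no other member passed, although 16 had a positive sign (list median 0.13, against -0.01 for all genes). Among the larger remaining rises were Acta1, skeletal muscle actin (0.93, SE 0.18), Iqcf3 (0.80, SE 0.16), Tmem53 (0.78, SE 0.17) and Reg2, a lectin of the Reg family (0.77, SE 0.17).

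The promoters of 3 genes are shown, picked by hand from the 17 rises that passed in every fit that left out an array. They are RefSeq sequences of build GRCm38.p6, plus strand, from 250 bases before to 50 bases after the start. Capitals mark metal response elements (TGCNCNC) in Mt1 and the TATA box (TATAAA) in Ccl8.
Mt1, chr8:94178839-94179138: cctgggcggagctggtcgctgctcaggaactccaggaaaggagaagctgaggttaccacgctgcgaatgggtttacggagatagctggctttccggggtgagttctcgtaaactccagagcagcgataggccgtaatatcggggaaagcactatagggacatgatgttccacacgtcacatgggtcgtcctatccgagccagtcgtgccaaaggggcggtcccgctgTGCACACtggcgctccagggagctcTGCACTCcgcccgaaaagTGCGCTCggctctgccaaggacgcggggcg
Ccl8, chr11:82114935-82115234: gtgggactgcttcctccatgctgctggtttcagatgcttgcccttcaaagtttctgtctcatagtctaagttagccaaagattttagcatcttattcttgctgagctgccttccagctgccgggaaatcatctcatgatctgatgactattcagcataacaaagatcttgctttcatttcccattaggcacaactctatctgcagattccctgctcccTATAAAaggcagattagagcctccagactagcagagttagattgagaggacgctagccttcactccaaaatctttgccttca
Tnfsf10, chr3:27316827-27317126: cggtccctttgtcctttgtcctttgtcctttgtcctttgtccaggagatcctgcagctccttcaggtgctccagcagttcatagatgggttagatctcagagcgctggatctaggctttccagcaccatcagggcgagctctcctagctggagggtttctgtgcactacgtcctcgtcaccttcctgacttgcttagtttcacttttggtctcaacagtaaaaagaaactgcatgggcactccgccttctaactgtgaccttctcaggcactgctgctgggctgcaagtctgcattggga
The Mt1 window holds 3 metal response elements on either strand. Neither the Ccl8 nor the Tnfsf10 window holds the interferon-stimulated response element or the gamma-activated site TTCNNNGAA on either strand. Of the 97 rises, 81 had a promoter sequence. The interferon-stimulated response element stood in 3.7% of these, against 3.94% of the 15683 tested genes with a sequence, the gamma-activated site in 6.17% against 9.03%, the metal response element in 54.3% against 57.6% and the TATA box in 7.41% against 14.6%. The spelling of the metal response element is short and common, so a match in Mt1 is a description of these letters only.

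**Figure D2:**
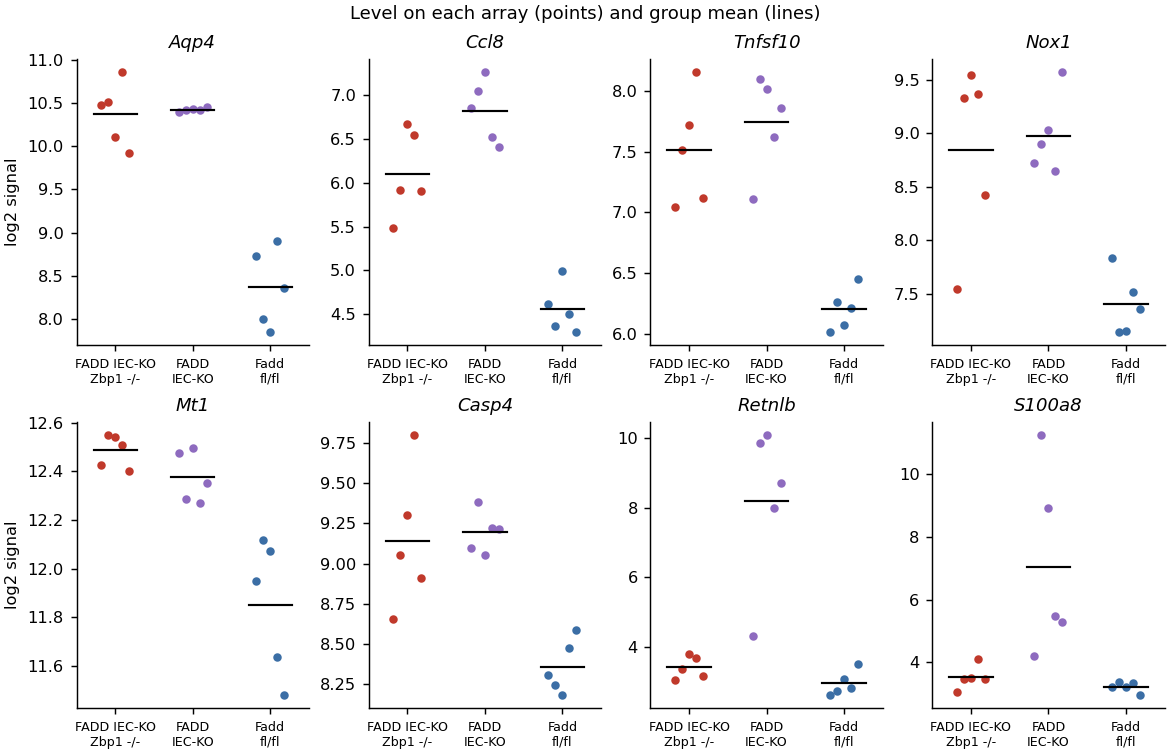
The level of 8 genes on each array (log2 signal on the y axis, 1 point per mouse, the line is the group mean) in FADD IEC-KO Zbp1 -/-, FADD IEC-KO with titles 1 to 30 and Fadd fl/fl. Aqp4, Ccl8, Tnfsf10, Mt1 and Casp4 of the co-deletion lie above all 5 floxed arrays, Nox1 on 4 of 5 arrays, and Retnlb and S100a8 overlap with the floxed arrays.

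The falls were led in size by Anxa8, an annexin that binds membrane phospholipids with calcium. Anxa8 had 8.87, 7.80, 9.06, 8.73 and 8.59 in FADD IEC-KO Zbp1 -/- colons, against 9.48, 10.11, 10.28, 10.10 and 9.46 in Fadd fl/fl colons, a fall of -1.28 (SE 0.30, limma adjusted p = 0.01914). It missed the threshold with the clock score (adjusted p = 0.1384). Sh3bgrl, a small thioredoxin-fold protein, shared the smallest adjusted p of the falls with Fadd. Sh3bgrl had 7.78, 7.59, 8.39, 7.97 and 8.07 in the co-deletion, against 9.31, 9.35, 9.26, 9.04 and 8.96 in floxed colons, a fall of -1.22 (SE 0.12, limma adjusted p = 5.222e-09). Uprt, a homologue of uracil phosphoribosyltransferase, had 8.46, 8.21, 8.98, 8.26 and 8.44 in the co-deletion, against 9.47, 9.44, 9.40, 9.50 and 9.61 in floxed colons, a fall of -1.02 (SE 0.12, limma adjusted p = 5.496e-07). Sh3bgrl and Uprt both lie on the X chromosome, where 9 of 798 tested genes passed (1.128%). Both were also lower than in FADD IEC-KO (titles 1-30), by -1.07 and -0.78 (SE 0.12 each). The same co-deletion arrays chose these genes, so the values are not a second test of their falls.

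Further falls were of single genes with different roles, with no common theme tested. Hspb7, a small heat shock protein of muscle, fell by -1.17 (SE 0.31) and Gfra2, a receptor of neurturin, by -1.06 (SE 0.25). The synaptic vesicle gene Rims1 fell by -0.89 (SE 0.20) and the vesicle fusion gene Snap25 by -0.85 (SE 0.18). Hspb7 and Rims1 had adjusted p = 0.2002 and 0.101 with the clock score, and Hspb7 passed in only 1 of the 10 fits that left out an array. The smooth muscle list, whose part in the fall of Hspb7 was not tested, had array means of 9.70 to 9.93 in FADD IEC-KO Zbp1 -/- and 9.91 to 10.11 in Fadd fl/fl. Snap25 was the only one of the 16 measured genes of enteric neurons and glia to pass, and that list had a median of 0.04, with a mean level of 5.98 to 6.22 in FADD IEC-KO Zbp1 -/- and 5.96 to 6.31 in Fadd fl/fl. Sdc4, a heparan sulphate proteoglycan of the cell surface, had 9.38, 9.53, 9.82, 9.64 and 9.61 in the co-deletion, against 10.24, 10.49, 10.50, 10.43 and 10.61 in floxed colons, a fall of -0.86 (SE 0.12, limma adjusted p = 2.778e-05). Lama3, a laminin chain of the epithelial basement membrane, fell by -0.73 (SE 0.14) and Cyb5r3, the reductase of cytochrome b5, by -0.91 (SE 0.17). Sdc4, Lama3 and Cyb5r3 passed in all 10 fits that left out an array and with the clock score. Mfap3l fell by -0.83 (SE 0.18) and missed the threshold with the clock score (adjusted p = 0.09049).

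For 5 genes the co-deletion stood below every other array of the study. Urb2, a factor of ribosome assembly, had 8.01, 7.82, 8.05, 8.03 and 7.80 in FADD IEC-KO Zbp1 -/- colons, against 8.71, 8.60, 8.62, 8.71 and 8.71 in Fadd fl/fl colons and 8.12 to 8.92 over all 45 other arrays. Asb13, a substrate adaptor of ubiquitin ligases, had 6.97 to 7.66 in the co-deletion and 7.69 to 8.41 elsewhere. Mib1, the ubiquitin ligase that activates Notch ligands, had 9.31 to 9.58 in the co-deletion and 9.59 to 10.14 elsewhere. Triobp, which organises actin, had 8.24 to 8.54 against 8.59 to 9.40, and Zfand2a, a stress-induced zinc finger protein, 7.12 to 7.44 against 7.44 to 8.24. The falls against the floxed mice were -0.73 (SE 0.09) for Urb2, -0.68 (SE 0.11) for Asb13, -0.50 (SE 0.08) for Mib1, -0.47 (SE 0.11) for Triobp and -0.55 (SE 0.12) for Zfand2a. These 5 are 0.0256% of the genes tested. No gene stood above all 45 other arrays in the co-deletion, and each of the other 9 groups of 5 had 0 to 4 genes outside all other arrays in either direction. The 5 genes were chosen after their values were seen, and they lie on 5 different chromosomes.

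**Figure D3:**
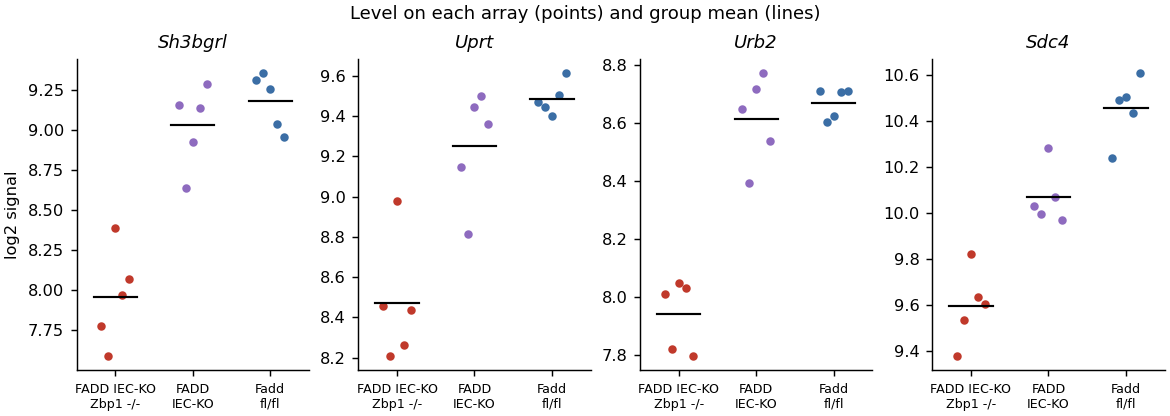
The level of Sh3bgrl, Uprt, Urb2 and Sdc4 on each array (log2 signal on the y axis, 1 point per mouse, the line is the group mean) in FADD IEC-KO Zbp1 -/-, FADD IEC-KO with titles 1 to 30 and Fadd fl/fl. In Sh3bgrl, Urb2 and Sdc4 the co-deletion lies below both other groups on all arrays, and in Uprt below the floxed arrays only, since replicate 3 at 8.98 reaches the range of FADD IEC-KO.

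Genes beside the targeted loci were also read. None of the 50 nearest measured genes around Zbp1 on chromosome 2 and none of the 33 around Fadd on chromosome 7 passed. At an unadjusted p under 0.05 (limma) there were 6 and 5 of them, against 2470 of all 19494 genes. Their medians were -0.05 and 0.02. Over whole chromosomes 11 of 1637 genes on chromosome 2 passed (0.672%) and 15 of 1821 on chromosome 7 (0.824%), against 1.07% of all genes. At that share, sets of 50 and 33 genes without a call are near the background and do not check the mouse lines.

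Among genes with large differences after FADD loss alone, Ddah1, Ccl8 and Aqp4 also passed in the co-deletion, as given above. The genes described next did not pass, with wide intervals. Retnlb, a goblet cell protein that acts on bacteria, had 3.07, 3.36, 3.79, 3.70 and 3.18 in FADD IEC-KO Zbp1 -/- colons, against 2.63, 2.74, 3.10, 2.83 and 3.51 in Fadd fl/fl colons, a difference of 0.46 (95% interval -1.14 to 2.06). In FADD IEC-KO (titles 1-30), set against the same floxed arrays, that difference was 5.23. The neutrophil gene S100a8 differed by 0.31 (-1.48 to 2.10) in the co-deletion and 3.82 in the single knockout, and the cytokine gene Il1b by 0.31 (-1.43 to 2.04) and 3.55. Pln, a calcium regulator of muscle, differed by -0.14 (-0.74 to 0.45) in the co-deletion and -1.84 in the single knockout. For these 4 genes the groups overlapped and the point estimate was close to the floxed mean.

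Other leading genes had point estimates farther from the floxed mean, and none of them passed. Ido1, which degrades tryptophan, had 4.64, 5.74, 6.70, 6.95 and 5.94 in FADD IEC-KO Zbp1 -/- colons, against 4.90, 3.94, 4.06, 4.27 and 4.14 in Fadd fl/fl colons, a difference of 1.73 (95% interval 0.26 to 3.21, limma adjusted p = 0.2789). Nos2, the inducible nitric oxide synthase, had 4.64, 6.95, 7.20, 7.20 and 5.23 in the co-deletion, against 4.53, 4.40, 4.46, 4.51 and 4.76 in floxed colons, a difference of 1.71 (0.28 to 3.14, limma adjusted p = 0.2637). In both genes 4 of 5 co-deletion arrays were above all floxed arrays and replicate 1 was not. Pla2g2a, an antibacterial phospholipase, differed by 1.59 (0.51 to 2.67), the chloride channel regulator Clca4b by 1.43 (-0.07 to 2.93) and Plet1 by 1.26 (-0.37 to 2.88). The intervals of Clca4b and Plet1 included 0, so a remaining difference was not shown for them. The single knockout differed from the floxed arrays by 4.36 for Ido1, 3.94 for Nos2, 4.13 for Pla2g2a, 4.65 for Clca4b and 3.90 for Plet1. The co-deletion was lower than the single knockout in each of the 5 genes, by -2.62 (SE 0.73) for Ido1, -2.22 (SE 0.71) for Nos2, -2.54 (SE 0.54) for Pla2g2a, -3.22 (SE 0.74) for Clca4b and -2.64 (SE 0.81) for Plet1, all past the threshold (limma). These genes were named as leading genes of the single knockout, with earlier results of these data known. That choice by itself favours a lower value in the co-deletion, so these tests are not independent of it.

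Both interferon lists had positive medians without a gene past the threshold. Of the 27 measured genes on the interferon-gamma list, which also covers antigen presentation, none passed, but all 27 had a positive sign, with a median of 0.46 and a range of 0.07 to 1.03 (all genes tested had a median of -0.01, with 9472 of 19494 positive). Array means of this list were 7.42 to 8.07 in FADD IEC-KO Zbp1 -/- and 7.05 to 7.43 in Fadd fl/fl, so the groups touched at 1 array. The median in the single knockout against the same floxed arrays was 1.64, and 26 of the 27 genes were lower in the co-deletion than in the single knockout. The largest differences among them were in the GTPase genes Igtp (1.03, 95% interval 0.15 to 1.90) and Irgm2 (0.84, 0.18 to 1.50). None of 28 type I interferon-stimulated genes passed either. Their median was 0.34 with 27 positive. Their array means did not overlap, at 6.40 to 6.68 in FADD IEC-KO Zbp1 -/- and 5.99 to 6.28 in Fadd fl/fl. Those of the Paneth cell list (5.73 to 5.96 against 5.49 to 5.71) and the exocrine pancreas list (6.43 to 6.53 against 6.61 to 6.73) did not overlap either. The type I median against the same floxed arrays was 0.67 in the single knockout. It was 0.66 in FADD IEC-KO Mlkl -/-, where 9 of the 28 genes were higher past the threshold. Against the single knockout 2 of the 28 were lower in the co-deletion and 1 was higher. In the co-deletion Oasl2 (1.46, 0.63 to 2.29, limma adjusted p = 0.06325) and Ifit1 (1.23, 0.40 to 2.06, limma adjusted p = 0.1301) lay above all floxed arrays. H2-Q1, a class I gene of the major histocompatibility complex that is not on these lists, rose by 0.61 (SE 0.15), and the complement genes C4a and C4b rose by 0.63 (SE 0.15) and 0.57 (SE 0.13). H2-Q1, C4a and C4b were chosen after their values were seen, and each has a near-identical relative whose RNA the probes may share. With the clock score H2-Q1, C4a and C4b missed the threshold (adjusted p = 0.1987, 0.09951 and 0.1144), and H2-Q1 passed in 3 of the 10 fits that left out an array.

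**Figure D4:**
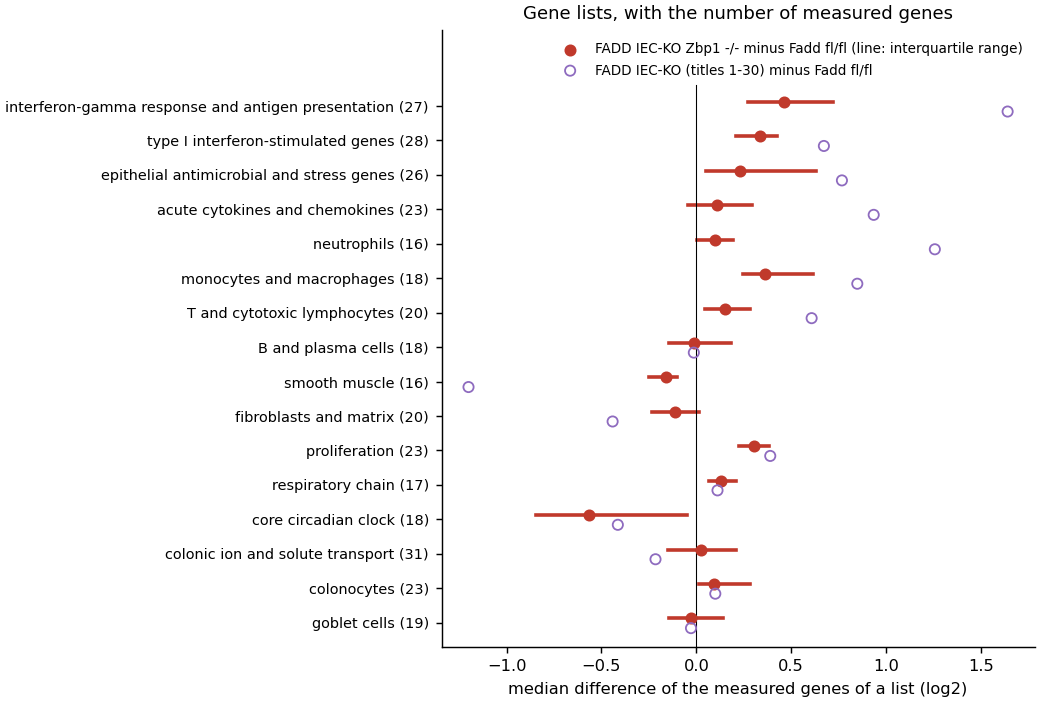
The median log2 difference of the measured genes of 16 lists (x axis) is shown for FADD IEC-KO Zbp1 -/- minus Fadd fl/fl (red, with a line over the interquartile range of the genes) and for FADD IEC-KO with titles 1 to 30 minus the same Fadd fl/fl arrays (open circles). The interferon-gamma list stands at 0.46 and 1.64, neutrophils at 0.10 and 1.26, smooth muscle at -0.16 and -1.20 and proliferation at 0.30 and 0.39.

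Of 43 lists, 30 had no gene past the threshold, and since 1.07% of all genes passed, a list of this size without a call is near the background. None of 16 neutrophil genes passed (median 0.10, 1.26 in the single knockout), none of 18 monocyte and macrophage genes (median 0.36, 17 positive, 0.85 in the single knockout) and none of 20 T and cytotoxic lymphocyte genes (median 0.15). The neutrophil list had array means of 4.57 to 4.80 in FADD IEC-KO Zbp1 -/- and 4.49 to 4.61 in Fadd fl/fl. In the single knockout replicates 22 and 23 stood apart, with neutrophils at 8.39 and 6.87, and the other 3 arrays had 4.78 to 5.22, so replicate 21 lay within the co-deletion range. None of 16 smooth muscle genes passed and 15 were negative, with a median of -0.16, against -1.20 in the single knockout, and 15 of the 16 were higher in the co-deletion than in the single knockout. The macrophage gene Cd14, a co-receptor for lipopolysaccharide, differed by 0.91 (95% interval 0.41 to 1.41, limma adjusted p = 0.05273).

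In the remaining lists few members passed, and these counts are to be read against the 0.498% of all genes higher and 0.575% lower. Among 23 acute cytokines and chemokines Ccl8 rose and no other gene passed (median 0.11), and among 26 epithelial antimicrobial and stress genes 2 rose (median 0.23, 21 positive), Nox1 and the acute phase gene Saa1 (0.54, SE 0.12), which was also the 1 riser of 23 colonocyte genes. Of 21 necroptosis and death receptor genes Tnfsf10 and Sharpin, a subunit of the linear ubiquitin ligase (0.29, SE 0.07), rose and Fadd, the targeted gene, fell. Casp4 was the only one of 23 inflammasome and pyroptosis genes to rise. Of 23 proliferation genes Tyms, thymidylate synthase, rose by 0.35 (SE 0.08), and 22 were positive with a median of 0.30. The array means of the proliferation list overlapped, at 7.85 to 8.39 in FADD IEC-KO Zbp1 -/- and 7.66 to 8.06 in Fadd fl/fl. Those of the epithelial antimicrobial and stress genes were 6.98 in co-deletion replicate 1 and 7.36 to 7.73 in the others, against 6.88 to 7.05 in floxed colons. In the goblet cell list Sytl2 fell by -0.43 (SE 0.11), and in the immediate early list Klf6 by -0.43 (SE 0.11). With the clock score, Saa1, Sharpin, Tyms and Sytl2 missed the threshold (adjusted p = 0.1144, 0.1163, 0.07931 and 0.1046). Anxa8 was the 1 gene of 20 on the injury repair list that fell, and Acta1 the 1 gene of 10 on the skeletal muscle list that rose. The colonocyte list had array means of 9.27 to 9.59 in FADD IEC-KO Zbp1 -/- and 9.29 to 9.45 in Fadd fl/fl, and the ileal list 6.78 to 7.12 and 6.77 to 6.87, so both groups carried the colon's epithelial markers. The clock list had the median farthest from 0 among lists of 10 or more genes, at -0.57 with none of 18 genes passing. Its members with the largest differences were Dbp (-1.66, 95% interval -3.11 to -0.21) and Ciart (-1.32, -2.67 to 0.04).

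A set of mice that shared no array with the comparison gave genes called in FADD IEC-KO without a second deletion. FADD IEC-KO (titles 86-124) minus Casp8 fl/fl had 1326 genes higher (6.8%) and 828 lower (4.25%), or 1186 and 1138 after quantile normalization. Of the 97 rises in the co-deletion 61 (62.9%) were among those higher genes, which is 4.6% of the 1326, and of the 112 falls 27 (24.1%) were among the lower genes, which is 3.26% of the 828. No rise and 2 falls were called the opposite way there. With the clock score as a covariate, 18 rises and 8 falls were shared. The shared rises included Aqp4 (1.43 there), Ccl8 (1.91), Ddah1 (1.89), Nox1 (1.25), Tnfsf10 (1.58), Ces2e (0.82), Mov10 (1.00), Casp4 (0.78), the cell cycle repressor E2f8 (0.85) and Tnip3, an inhibitor of NF-kappaB signalling (0.85). The shared falls included Fadd (-1.16), Hspb7 (-0.95), Rims1 (-0.70), Mfap3l (-0.67), Lama3 (-0.46), Klk15 (-0.52), Fnip2 (-0.67), the netrin receptor Neo1 (-0.59), Cpxm2 (-0.43) and the telomere protein gene Pot1b (-0.39). Casp8 fl/fl mice are floxed at another gene than the one deleted, and they were the floxed mice with titles in that number series.

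Most genes that FADD loss alone changed in those mice kept their direction in the co-deletion at a smaller size. Of the 1326 higher genes, 1142 had a positive sign in FADD IEC-KO Zbp1 -/- against Fadd fl/fl, and the median was 0.16 (interquartile range 0.06 to 0.28), against 0.44 in the mice that chose them. Of the 828 lower genes, 688 had a negative sign, and the median was -0.14 (interquartile range -0.24 to -0.04), against -0.42. The 100 largest rises had a median of 1.30 in those mice and 0.62 in the co-deletion, where 8 of them passed. The 100 largest falls had -0.74 and -0.23, with 5 passing. The medians of all genes tested were -0.03 and -0.01. The genes were chosen by their size in the first set of mice, so the paired medians are not like for like. FADD IEC-KO (titles 1-30), which did not choose them, had medians against Fadd fl/fl of 0.29 for the 1326 genes and -0.29 for the 828. For the 100 largest rises and falls its medians were 1.55 and -0.89. Against the single knockout with titles 1 to 30, 52 of the 100 rises were lower in the co-deletion and 1 was higher.

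**Figure D5:**
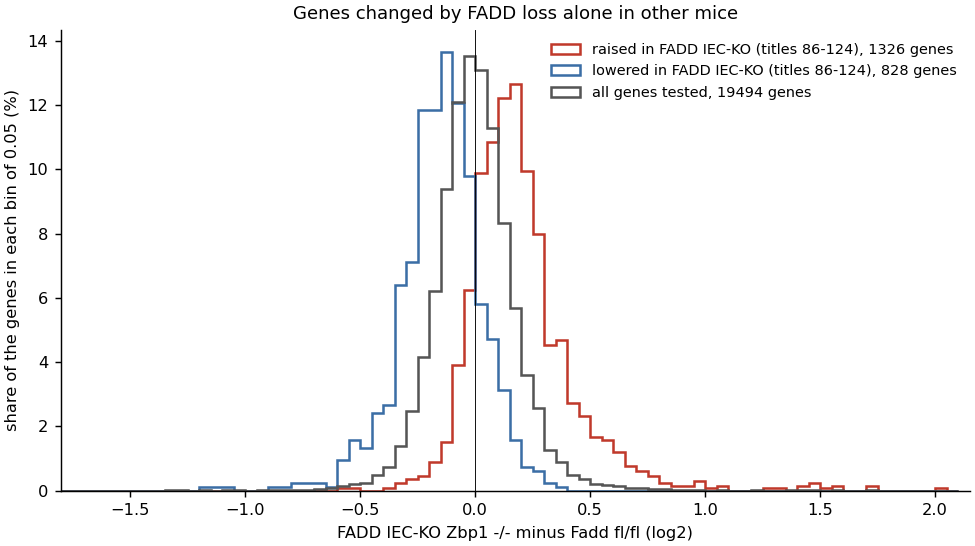
The difference FADD IEC-KO Zbp1 -/- minus Fadd fl/fl (x axis, log2) is shown as the share of genes in each bin (y axis, %) for the 1326 genes raised and the 828 genes lowered in FADD IEC-KO with titles 86 to 124 minus Casp8 fl/fl, and for all 19494 genes. The raised genes centre at 0.16, the lowered genes at -0.14 and all genes at -0.01.

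The co-deletion was also set directly against the single knockout. FADD IEC-KO Zbp1 -/- minus FADD IEC-KO (titles 1-30) gave 1094 higher (5.61%) and 1002 lower (5.14%) genes. Of the 97 rises over floxed colon, 22 were also higher than in the single knockout and 2 were lower, and of the 112 falls 36 were also lower than in the single knockout and none was higher. These genes were chosen on the same 5 co-deletion arrays, which by itself moves rises up and falls down in the second comparison. Nothing is read from these counts, and the values of single genes that follow carry the same limit. Acta1 stood above the single knockout by 1.03 (SE 0.18) and Slc34a2 by 1.79 (SE 0.43), whereas Tnfsf10 (-0.23, SE 0.20), Nox1 (-0.13, SE 0.30), Mov10 (-0.07, SE 0.18) and Casp4 (-0.05, SE 0.18) did not pass in that comparison. Among the falls, Anxa8 lay below the single knockout by -1.39 (SE 0.30), Cyb5r3 by -0.71 (SE 0.17) and Sdc4 by -0.47 (SE 0.12), whereas Hspb7 (0.06, SE 0.31), Rims1 (-0.04, SE 0.20) and Neo1 (0.03, SE 0.12) did not pass. A difference that missed the threshold does not show equal levels.

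The co-deletion of FADD and RIPK3 in the epithelium was the other group that shared no array with the comparison. FADD IEC-KO RIPK3 IEC-KO minus Casp8 fl/fl had 9 genes higher (0.0462%) and 6 lower (0.0308%), 0.0769% in all. Fadd and Pot1b fell in both co-deletions, with Pot1b at -0.58 (SE 0.11) in the Zbp1 co-deletion and -0.52 in the RIPK3 co-deletion. No rise was shared. The differences in the RIPK3 co-deletion were 0.78 for Aqp4, 0.33 for Ccl8 and 0.53 for Tnfsf10, none past the threshold. A test of the difference between the 2 co-deletions, the Zbp1 one against Fadd fl/fl and the RIPK3 one against Casp8 fl/fl, called 5 genes (0.0256%), 2 higher (0.0103%) and 3 lower (0.0154%). They were Sh3bgrl (-1.07, SE 0.17), Prelid2 (-1.13, SE 0.16), Urb2 (-0.69, SE 0.12), Pggt1b (0.60, SE 0.12) and Gkn2 (0.65, SE 0.13). Aqp4 (1.23, SE 0.36), Ccl8 (1.22, SE 0.36) and Tnfsf10 (0.79, SE 0.29) did not pass in that test, so a difference between the co-deletions was not shown for them. The 2 pairs lie in different title number series, and series and co-deletion cannot be told apart in it. FADD IEC-KO Mlkl -/- set against the same Fadd fl/fl arrays had 13 genes higher (0.0667%) and 18 lower (0.0923%), with differences of 1.29 for Aqp4, 0.56 for Ccl8, 0.46 for Tnfsf10, 0.46 for Nox1 and -0.12 for Sh3bgrl.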

How the data were processed

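Colon RNA (100 ng per array) of 50 mice in 10 groups of 5 was hybridised to 1-colour Affymetrix arrays. The deposited values are log2 signals that the authors made with Affymetrix Expression Console and Transcriptome Analysis Console, per the submitters' processing notes; the normalization algorithm and the array's genome build are not stated there. Array medians were 6.41 to 6.47, so the values were used as deposited. Of 22142 probe sets, 19527 had 1 gene symbol in the platform annotation and 2615 had none; where a gene had several, the brightest was kept (33 dropped), which left 19494 genes. The precision is limited by 5 arrays per group.

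All 50 arrays entered 1 limma 3.58.1 fit in R 4.3.3, with a mean for each group (40 residual degrees of freedom), and p-values were adjusted over 19494 genes by Benjamini-Hochberg (threshold 0.05). The fit was tested on simulated data. Intervals are 95% intervals of that fit. The genes named were the 5 targeted genes, the 12 largest rises and 12 largest falls without overlap (no predicted and no sex-linked genes), up to 10 genes each way shared with FADD IEC-KO (titles 86-124) and up to 6 with FADD IEC-KO RIPK3 IEC-KO, up to 4 genes of each list that passed or otherwise 2, genes that passed beside Zbp1 or Fadd, and 12 leading genes of the single knockout. Other names were chosen after their values were seen. The comparison, gene lists and tests were chosen with earlier results of these data known. Promoters came from RefSeq (GRCm38.p6), and motifs were searched on both strands. The alternatives tried were other sets of arrays, quantile normalization, a filter on dim genes, trend and robust moderation, group weights, sex and clock covariates, the mean of probe sets, a 2-fold threshold, both floxed groups as control and leaving out each array. Nothing in the sources says that mice came from separate litters or cages.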

Additional observations from a re-analysis of the deposited data

Results flagged for a closer look

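In 15 of 358 groups of 5 values, 1 array stood far from the other 4, by a ratio of gap to range above 0.71, which chance gives in about 1 of 20 groups. In FADD IEC-KO Zbp1 -/-, replicate 5 had 8.06 for Idi1 (others 8.90 to 9.25), 8.60 for C4b (others 8.20 to 8.31) and 7.19 for C4a (others 6.33 to 6.52), and its mean over the colonocyte list was 9.27 (others 9.52 to 9.59). Replicate 2 of that group had 4.99 for Itgax (others 5.50 to 5.70), 7.12 for Pcp4 (others 7.87 to 8.10) and a mean of 5.04 over the mast cell and eosinophil list (others 4.87 to 4.91). Replicate 1 had 8.31 for Ciart, against 5.42 to 5.95 in the others. In Fadd fl/fl, replicate 30 had 9.54 for Dbp (others 11.50 to 11.74), 9.19 for Arntl (others 7.24 to 7.73), 10.52 for Cldn8 (others 9.24 to 9.45) and a mean of 6.77 over the ileal list (others 6.85 to 6.87). Replicate 29 had 11.85 for Tcf7l2 (others 11.58 to 11.64). Replicate 26 had a mean of 8.87 over the endoplasmic reticulum stress list (others 8.63 to 8.64) and of 8.17 over the immediate early list (others 7.78 to 7.88).

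For 5 genes the difference of the Zbp1 co-deletion from Fadd fl/fl was unlike that of the RIPK3 co-deletion from Casp8 fl/fl, by a test of the difference (limma, adjusted p under 0.05). That difference was -1.07 for Sh3bgrl, -1.13 for Prelid2, -0.69 for Urb2, 0.60 for Pggt1b and 0.65 for Gkn2.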

How the results depend on the processing

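No paired analysis was possible because the compared groups share no replicate number. The count of 209 genes (97 higher, 112 lower) was 106 with only the compared arrays, 384 without the dimmest 40% of genes, 552 with group weights, 75 with the clock score, 14 at 2-fold or more and 988 (612 higher, 376 lower) against the mean of both floxed groups. It was 68 to 284 when 1 array was left out, and 157 with only the compared arrays and without FADD IEC-KO Zbp1 -/- replicate 1, an alternative chosen after seeing the data. FADD IEC-KO (titles 86-124) minus Casp8 fl/fl had 2154 genes, 787 with only its arrays, 1430 with group weights, 102 at 2-fold and 1356 (without replicate 117) to 2602 without 1 array. FADD IEC-KO RIPK3 IEC-KO minus Casp8 fl/fl had 15, 4 with only its arrays, 2 at 2-fold and 1 to 14 without 1 array. The co-deletion minus FADD IEC-KO (titles 1-30) had 2096, 184 with only its arrays and 184 at 2-fold, and 835 (without replicate 22) to 3001 without 1 array. The difference between co-deletions had 5, 9 with group weights, 2 at 2-fold and 3 to 8 without 1 array. The 88 genes shared with FADD IEC-KO (titles 86-124) were 32 with only the compared arrays, 171 without dim genes, 168 with group weights, 26 with the clock score, 6 at 2-fold and 23 to 126 without 1 array. The 2 genes shared with FADD IEC-KO RIPK3 IEC-KO were 1 with only the compared arrays, 1 at 2-fold and 1 to 3 without 1 array. Signs turned only for genes that did not pass under either setting. With the clock score Dbp was 0.10, Ciart 0.33, Arntl -0.16, Cldn8 -0.029, S100a8 -0.44, Retnlb -0.23, Il1b -0.50, Pln 0.045 and Eif2s3y 0.066. Dbp, Ciart and Arntl are members of that score, which takes up their own difference by construction, so nothing is read from their values. Eif2s3y was 0.030 with sex as a covariate, and Alas2 was 0.046 against both floxed groups and -0.077 to 0.060 when 1 array was left out, with the positive value without Fadd fl/fl replicate 29. The cause of the other changes was not tested. The fit of titles 1 to 30 gave no value for comparisons with titles 86 to 124.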
